A study of Homo sapiens with 17 samples.

Results

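The 10 genes described here make and use microRNAs (miRNAs): DROSHA, DGCR8, XPO5, DICER1, TARBP2, AGO1, AGO2, AGO3, AGO4 and TNRC6A. They were taken by symbol from the 60662 genes of a read count table, and all 10 were found and all 10 passed the filter on low counts in every comparison. The RNA came from Ishikawa cells, an established line derived from a human endometrial adenocarcinoma and used as a model of the endometrial epithelium. Stranded total RNA libraries were sequenced from 17 cultures, and the study asked how progesterone (P4) changes the transcripts of these cells.

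The control group was 3 cultures in control medium without treatment. The vehicle control group was 3 cultures given the vehicle of 70% ethanol for 24 h, and their titles name a further component, Nap, which is not defined in the sources used here. The P4 treated group was 3 cultures given Nap and P4 for 24 h, and the Nap only group was 2 cultures given Nap for 24 h. Ethanol is named for the vehicle control alone, so a difference in ethanol and a difference in P4 between these groups cannot be told apart. The protocol lists P4 at 0.1 and 1.0 mg/ml, and no label gives the dose of a library. The study's figure legends give the P4 of the sequenced cultures in μg/ml, at a lower concentration than either of these. The legend of its miRNA measurements also gives a lower ethanol percentage for the vehicle. Which of these values hold is not settled here. The other 6 libraries, from cells given recombinant PSAT1 protein with or without P4, carry titles that contradict the names of their columns in the table, so they were left without a group and entered no comparison. All cultures share the same line, grown with charcoal-stripped serum, and the labels call the members of a group biological replicates without saying how the cultures were separated.

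A miRNA is transcribed as a long hairpin-bearing precursor that DROSHA and its partner DGCR8, together called the Microprocessor, cut in the nucleus. XPO5 (exportin 5) carries the hairpin to the cytoplasm, where DICER1 with TARBP2 trims it to a duplex, and an Argonaute protein keeps a single strand of that duplex as its guide. The loaded Argonaute binds mRNAs that pair with the guide's seed and recruits TNRC6A (GW182), a scaffold that brings deadenylases to the mRNA. AGO2 is the human Argonaute best known for slicing its target, and in the endometrium miRNAs have been studied for their part in preparing the epithelium for implantation.

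Library totals ranged from 4999521 counts, in vehicle control replicate 1, to 19704493 counts, and a member had between 134 and 3427 counts in a library of a group. The mitochondrial ribosomal RNA gene MT-RNR2 took 20.2% to 27.1% of the counts of a control library and 24.0% to 25.1% of a P4 treated library. All 7 epithelial markers (EPCAM, KRT8, KRT18, KRT19, CDH1, CLDN3 and CLDN4) were at 1 CPM (TMM-scaled counts per 1000000) or more in every group. They summed to 1230 to 1480 CPM in controls, 1160 to 1330 CPM in Nap only, 1230 to 1270 CPM in vehicle controls and 959 to 1100 CPM in P4 treated cultures. In P4 treated cultures CLDN4 (27.8 to 37.0 CPM, from 79.2 to 88.3 CPM in vehicle controls) and KRT8 (217 to 274 CPM, from 385 to 406 CPM) were lower. KRT18 and KRT19 were lower there as well, and EPCAM and CLDN3 overlapped between these groups. CDH1 was higher, at 275 to 329 CPM after P4 from 244 to 272 CPM in vehicle controls. The 5 stromal markers, mostly COL1A2, summed to 362 to 499 CPM in controls and 357 to 498 CPM in Nap only. They summed to 286 to 303 CPM in vehicle controls and 79.0 to 132 CPM in P4 treated cultures. DCN was near the floor in every group, at 0 in P4 treated cultures and at most 0.158 CPM in the others. The 3 endothelial and the 3 leukocyte markers each summed to at most 1.56 CPM, with CDH5 at 0 in every group. The part of these differences in the results below was not tested. PGR, the progesterone receptor gene, was measured in all groups and fell by 1.44 ± 0.14 (SE) on the log2 scale in P4 treated against vehicle control cultures (adjusted p = 5e-06). It also fell by 0.93 ± 0.08 in the vehicle control against the control (adjusted p = 6.8e-08) and by 2.38 ± 0.13 in P4 treated against control cultures (adjusted p = 3e-10).

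The AGO1, AGO3 and AGO4 genes lie in a row on chromosome 1 (GRCh38, positions of GENCODE 29, all on the plus strand), and their promoters are shown because the transcripts of these neighbours moved in different directions. AGO4 spans chr1:35808172-35857890, AGO1 chr1:35869808-35930528 and AGO3 chr1:35930718-36072500. Between them lie 11917 bases (AGO4 to AGO1) and 189 bases (AGO1 to AGO3). The RefSeq starts used below lie inside these spans for AGO1 and AGO3 and before the span for AGO4. Each line is the plus strand before the RefSeq start of the gene, on GRCh38.p14, without bases in an annotated exon, and capitals mark the GC box GGGCGG, read on either strand.
AGO4, chr1:35807766-35808015: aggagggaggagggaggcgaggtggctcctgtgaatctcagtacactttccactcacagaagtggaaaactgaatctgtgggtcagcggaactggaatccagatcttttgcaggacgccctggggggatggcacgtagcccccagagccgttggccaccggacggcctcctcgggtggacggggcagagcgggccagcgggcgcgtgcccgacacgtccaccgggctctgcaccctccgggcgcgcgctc
AGO1, chr1:35882959-35883208: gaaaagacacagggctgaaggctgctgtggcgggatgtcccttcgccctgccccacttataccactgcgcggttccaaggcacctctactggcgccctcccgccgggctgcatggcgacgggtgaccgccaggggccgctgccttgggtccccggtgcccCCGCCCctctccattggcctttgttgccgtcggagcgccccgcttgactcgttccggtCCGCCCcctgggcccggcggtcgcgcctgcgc
AGO3, chr1:35930855-35931077: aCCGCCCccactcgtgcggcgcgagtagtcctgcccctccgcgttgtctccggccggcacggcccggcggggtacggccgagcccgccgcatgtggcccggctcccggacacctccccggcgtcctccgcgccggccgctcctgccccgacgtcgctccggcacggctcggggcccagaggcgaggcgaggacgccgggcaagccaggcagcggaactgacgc

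Over the full 250 bases before the start the GC content was 66.4% for AGO4, 71.6% for AGO1 and 80.0% for AGO3, against a median of 58.0% over 35116 RefSeq promoters. The GC box occurred 0 times in the AGO4 window and 2 times in each of the AGO1 and AGO3 windows, 1 of the latter lying in an exon and not printed. It was present in 42.6% of all such windows. The hexamer AGAACA, read on either strand and known from sites of the progesterone and glucocorticoid receptors, was in none of the 3 windows and in 12.4% of all windows.

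The study followed miR-671-5p, miR-542-3p and, with them, miR-340-5p, and the mature sequences of miR-340-5p and miR-671-5p are given with the seed, bases 2 to 8, in capitals (RefSeq, GRCh38.p14). The mature parts lie at chr5:180015361-180015382 (minus strand) and chr7:151238449-151238471 (plus strand).
miR-340-5p: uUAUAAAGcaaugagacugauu
miR-671-5p: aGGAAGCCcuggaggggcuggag

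The seeds of these miRNAs differ. The mRNA match searched was the seed complement followed by A, CTTTATAA for miR-340-5p and GGCTTCCA for miR-671-5p. It was searched on the sense strand of the 3′ untranslated region of a single transcript of each gene. The transcript was chosen by the annotation's principal tag, then the longest coding sequence, then the longest transcript. Other transcripts were not searched, nor were the shorter seed matches that the study's target prediction also took. Among the members, AGO4 and AGO3 each held 1 match for miR-340-5p, the other 8 held none, and no member held a match for miR-671-5p. Over 12825 tested genes with such a region, 6.88% held the first match and 3.81% the second. The AGO3 region is 16755 bases and the AGO4 region 4285 bases long, against a median of 1060 bases over all these genes. The matches are shown in capitals within 28 bases (GRCh38, plus strand).
AGO4, chr1:35857722-35857749: tacatggttgCTTTATAAaaacagtttc
AGO3, chr1:36069644-36069671: ctgaatttttCTTTATAAtaatccttgg

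Per length of exon, DICER1 was the highest member in control cultures and AGO3 the lowest. The level in RPKM (CPM per kilobase of exon) was 15.6 ± 1.48 (SD, n = 3) for DICER1 and 12.8 ± 1.79 for XPO5. It was 10.1 ± 0.366 for DROSHA, 9.02 ± 1.46 for AGO2 and 8.70 ± 0.243 for DGCR8. AGO1 stood at 7.79 ± 0.711, TARBP2 at 7.60 ± 0.226 and TNRC6A at 7.28 ± 0.419, followed by AGO4 at 4.23 ± 0.337 and AGO3 at 3.76 ± 0.184. In this order the ranges of the 3 libraries overlapped between DROSHA and AGO2, AGO2 and DGCR8, AGO1 and TARBP2, and TARBP2 and TNRC6A. The other neighbours were apart.

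**Figure D1:**
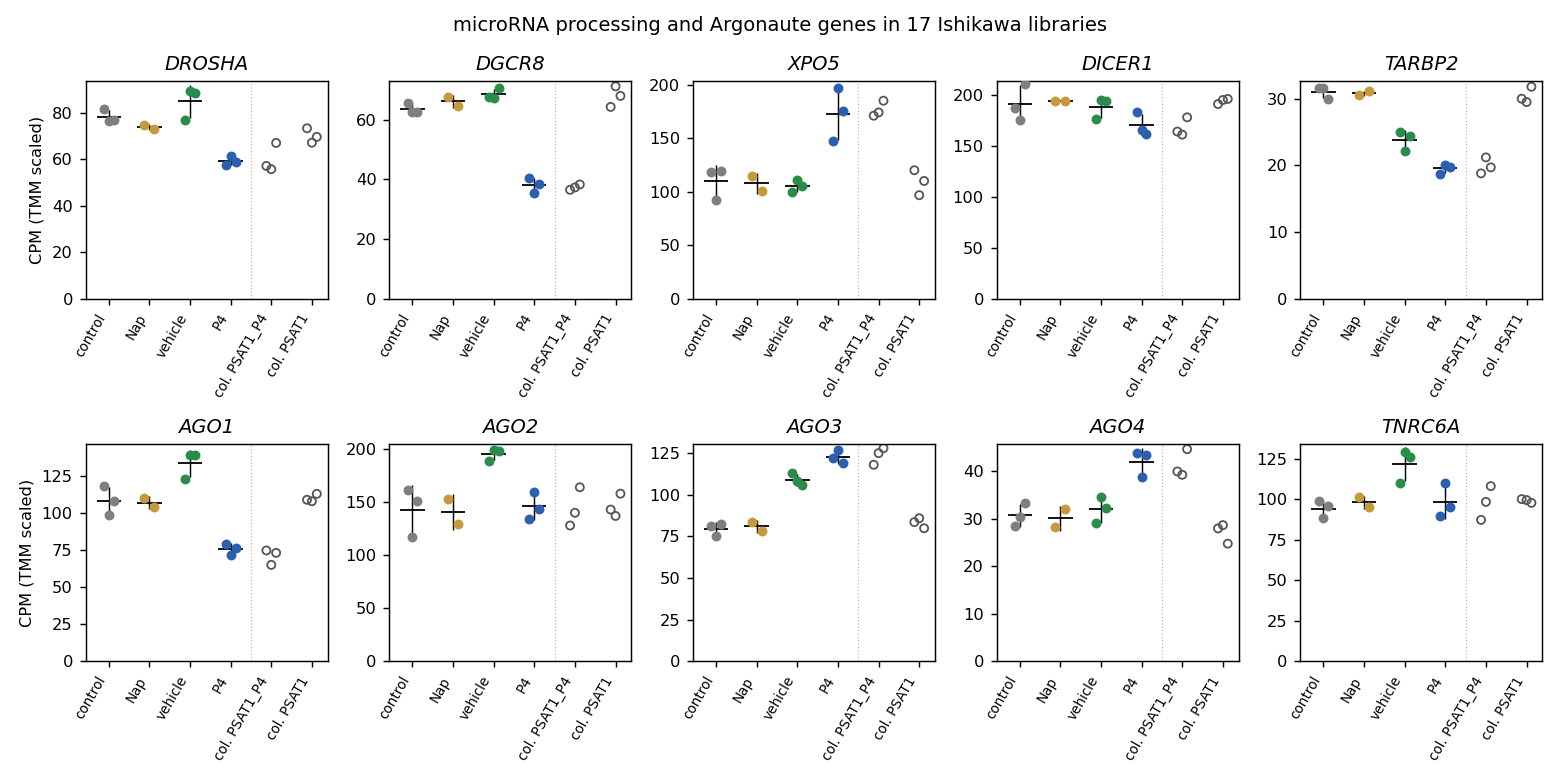
Each panel gives 1 member, with TMM-scaled CPM on the y axis from 0. Filled points are the libraries of each group, with the mean (horizontal line) and SD (vertical line), and open circles are the 6 libraries without a group, placed by the name of their column. In DGCR8 the 3 P4 treated libraries lie at 35.6 to 40.3 CPM, below every control, Nap only and vehicle control library, and in XPO5 they lie at 147 to 197 CPM, above all of these.

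In P4 treated against vehicle control cultures, the Microprocessor genes DROSHA and DGCR8, the Argonautes AGO1 and AGO2, the DICER1 cofactor TARBP2 and the scaffold TNRC6A fell, while XPO5, AGO3 and AGO4 rose. DICER1 did not pass the test. So 9 of 10 members were called, 3 higher and 6 lower, where 53.0% of 16540 tested genes were called, 26.6% higher and 26.5% lower (edgeR's quasi-likelihood test, Benjamini-Hochberg adjusted p under 0.05). The libraries of the groups did not overlap for 8 of 10 members, against 59.9% of all genes. The median log2 fold change was -0.30 over the members and -0.013 over all genes, and no member moved by more than 1 log2 unit. In bulk RNA, fewer cells expressing a gene and less of its RNA per cell cannot be told apart.

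DGCR8, the RNA-binding partner in the Microprocessor, had 67.6, 67.2 and 70.7 CPM in the vehicle controls and 40.3, 35.6 and 38.4 CPM after P4. The groups lay apart, and the level fell by 44.7% (log2 fold change -0.85 ± 0.08 SE, adjusted p = 2.6e-06). DROSHA, the RNase III enzyme that makes the first cut, had 76.8, 89.4 and 88.3 CPM in the vehicle controls and 57.7, 61.3 and 59.0 CPM after P4. Here too every P4 treated library was below every vehicle control (log2 fold change -0.53 ± 0.07, adjusted p = 8.3e-05). Both genes were called in all 14 settings, the fit reported and its alternatives. DGCR8 (chr22:20080232-20111877, plus strand) shares 7.19% of its exon bases with AC006547.2 on the other strand, which had at most 12 counts in any library, and it also holds the hairpins MIR1306 and MIR3618, each at 0 counts. DROSHA lies at chr5:31400497-31532196 on the minus strand.

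XPO5, the export receptor for the cut hairpin, had 100, 111 and 105 CPM in the vehicle controls and 147, 197 and 175 CPM after P4. The groups lay apart, and the level rose 1.63-fold (log2 fold change 0.71 ± 0.09, adjusted p = 5.4e-05), the largest rise of a member in this comparison. XPO5 (chr6:43522330-43576075, minus strand) shares 4.08% of its exon bases with POLR1C on the other strand. POLR1C had 13.3 CPM on average in vehicle controls and 16.5 CPM after P4 (log2 fold change 0.30 ± 0.12, adjusted p = 0.058).

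DICER1 (chr14:95086228-95158010, minus strand), which cuts the hairpin in the cytoplasm, had 176, 195 and 194 CPM in the vehicle controls and 183, 166 and 162 CPM after P4. The groups overlapped, and the log2 fold change of -0.16 ± 0.07 did not pass the test (adjusted p = 0.077). Without P4 treated replicate 1 it passed, at -0.21 (adjusted p = 0.0037), and with upper-quartile scaling it passed at -0.25 (adjusted p = 0.012). TARBP2 (chr12:53500921-53506431, plus strand), the double-stranded RNA binding partner of DICER1, had 25.0, 22.1 and 24.4 CPM in the vehicle controls and 18.7, 20.1 and 19.8 CPM after P4. The groups lay apart, and the call (log2 fold change -0.28 ± 0.10, adjusted p = 0.027) was lost without vehicle control replicate 1 (adjusted p = 0.082), vehicle control replicate 3 (0.10) or P4 treated replicate 3 (0.088), and with DESeq2 (0.088) or no filter (0.095).

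AGO1 had 123, 139 and 139 CPM in the vehicle controls and 79.5, 72.0 and 76.8 CPM after P4. No library overlapped, and AGO1 fell by 43.5% (log2 fold change -0.82 ± 0.07, adjusted p = 1.7e-06). AGO2 (chr8:140520156-140635619, minus strand), the slicing Argonaute, had 189, 199 and 198 CPM in the vehicle controls and 134, 160 and 144 CPM after P4. It fell by 25.6%, again without overlap (log2 fold change -0.43 ± 0.07, adjusted p = 0.00031).

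AGO4, the Argonaute upstream of AGO1, had 29.1, 34.7 and 32.2 CPM in the vehicle controls and 43.8, 38.8 and 43.5 CPM after P4. The P4 treated libraries were all higher (log2 fold change 0.37 ± 0.09, adjusted p = 0.0042), and AGO1, AGO2 and AGO4 were each called in all 14 settings. AGO3, downstream of AGO1, had 113, 108 and 106 CPM in the vehicle controls and 122, 127 and 119 CPM after P4. Its libraries lay apart, but the rise was small (log2 fold change 0.17 ± 0.07, adjusted p = 0.047) and was called in 5 of 14 settings, with adjusted p up to 0.31. The call was lost without vehicle control replicate 2 (adjusted p = 0.17) or 3 (0.19) and without P4 treated replicate 2 (0.073) or 3 (0.071). In all 14 settings AGO1 and AGO2 stayed below 0 and AGO3 and AGO4 above it.

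TNRC6A (chr16:24610209-24827632, plus strand), the scaffold that binds Argonaute, had 110, 129 and 126 CPM in the vehicle controls and 89.7, 110 and 95.3 CPM after P4. The highest P4 treated and the lowest vehicle control library met, and the fall (log2 fold change -0.32 ± 0.09, adjusted p = 0.0077) was not called without P4 treated replicate 3 (adjusted p = 0.052). Its paralogs TNRC6B and TNRC6C fell by similar amounts, at -0.29 ± 0.06 (adjusted p = 0.0025) and -0.33 ± 0.09 (adjusted p = 0.0076). Against the control neither paralog was called, with TNRC6B at -0.17 ± 0.09 (adjusted p = 0.11) and TNRC6C at 0.26 ± 0.11 (0.057). Against Nap only they were not called either, at -0.20 ± 0.08 (0.063) and 0.17 ± 0.11 (0.22). The 3 genes summed to 19.9 ± 1.34 RPKM (SD, n = 3) in vehicle controls and 16.2 ± 0.970 RPKM after P4. In controls the sum was 16.4 ± 0.713 RPKM and in Nap only cultures 16.9 RPKM. The exact permutation p of the sum in P4 treated cultures was 0.1 against vehicle controls (0.15 adjusted over 27 comparisons) and 0.9 against controls.

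**Figure D2:**
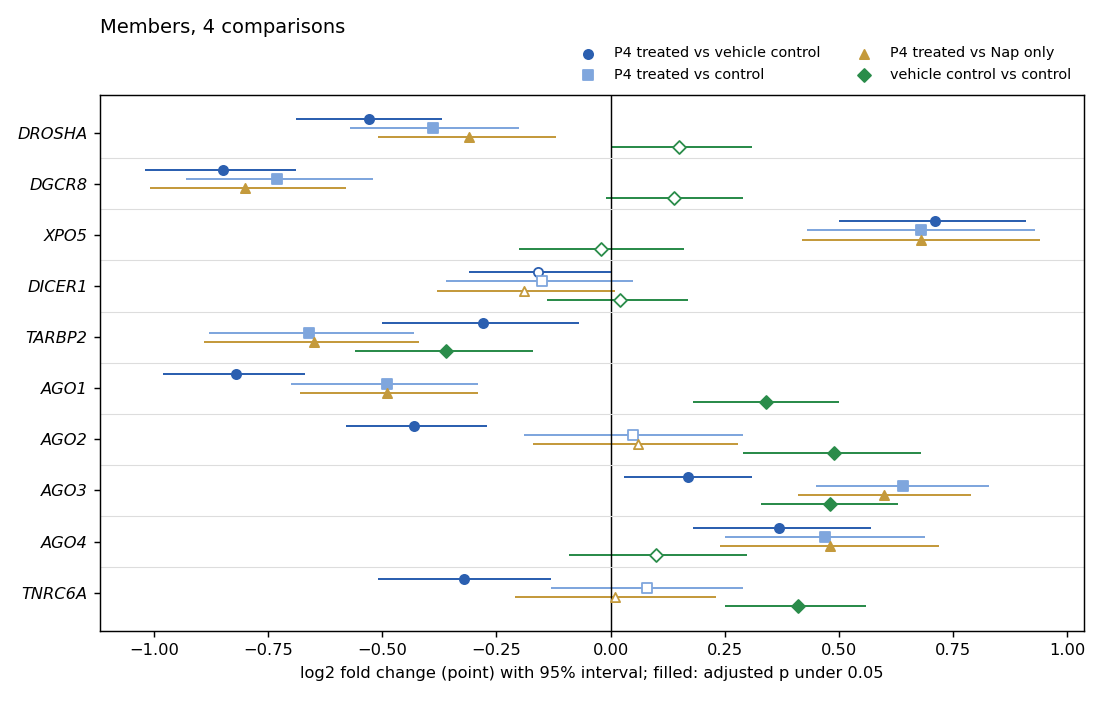
The x axis is the log2 fold change of each member with its 95% interval, in 4 comparisons told apart by colour and marker, and filled markers passed the test. DGCR8, AGO1 and DROSHA lie left of 0 and XPO5 and AGO4 right of it in all 3 comparisons with P4, whereas AGO2 and TNRC6A lie left of 0 against the vehicle control only (AGO2 at -0.43 there and at 0.05 against the control).

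Set against the untreated control, the same P4 treated libraries gave 7 of 10 members called, 3 higher and 4 lower, where 54.8% of 16620 genes were called, 26.8% higher and 28.0% lower. The libraries lay apart for 7 of 10 members and for 61.2% of all genes. DGCR8 fell by 0.73 ± 0.10 on the log2 scale from 65.7, 62.6 and 62.6 CPM in the controls (adjusted p = 5.6e-06), and DROSHA fell by 0.39 ± 0.09 from 81.5, 76.3 and 76.9 CPM (adjusted p = 0.0015). XPO5 rose by 0.68 ± 0.12 from 118, 91.9 and 119 CPM (adjusted p = 0.00013).

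Of the Argonautes, AGO1 fell by 0.49 ± 0.10 on the log2 scale from 118, 98.6 and 108 CPM in the controls (adjusted p = 0.00032). AGO3 rose by 0.64 ± 0.09 from 81.4, 75.2 and 82.3 CPM (adjusted p = 1.2e-05) and AGO4 by 0.47 ± 0.11 from 28.5, 30.4 and 33.4 CPM (adjusted p = 0.0011). AGO2, at 161, 117 and 151 CPM in the controls, overlapped the P4 treated libraries and was not called (log2 fold change 0.05 ± 0.11, 95% interval -0.19 to 0.29, adjusted p = 0.74). TARBP2 fell by 0.66 ± 0.11 from 31.6, 31.6 and 30.0 CPM (adjusted p = 4.5e-05). DICER1, at 187, 175 and 211 CPM in the controls, and TNRC6A, at 98.6, 88.1 and 95.5 CPM, were not called either (log2 fold changes -0.15 and 0.08, adjusted p = 0.20 and 0.51).

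The vehicle control itself stood apart from the untreated control in 5 of 10 members, 4 higher and 1 lower, where 22.6% of 16673 genes were called, 11.9% higher and 10.7% lower. The libraries lay apart for 6 of 10 members and for 39.4% of all genes. AGO2 rose by 0.49 ± 0.09 on the log2 scale (adjusted p = 0.0012), AGO3 by 0.48 ± 0.07 (adjusted p = 9.4e-05), TNRC6A by 0.41 ± 0.07 (adjusted p = 0.00057) and AGO1 by 0.34 ± 0.08 (adjusted p = 0.0033). TARBP2 fell by 0.36 ± 0.09 (adjusted p = 0.0083), a call lost without vehicle control replicate 2 (adjusted p = 0.09). TNRC6C rose too, by 0.60 ± 0.10 (adjusted p = 0.00019), while TNRC6B was at 0.12 ± 0.07 (adjusted p = 0.21). DROSHA, DGCR8, XPO5, DICER1 and AGO4 were not called, with log2 fold changes from -0.02 (XPO5) to 0.15 (DROSHA). The number of genes called in this comparison was 2038 without vehicle control replicate 2 and 1908 without replicate 3.

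The P4 treated libraries enter 3 of the comparisons and each reference group enters more than 1, so these values are not independent of each other. For AGO2 the log2 fold change was -0.43 against the vehicle control, 0.05 against the control and 0.06 against Nap only. For TNRC6A the values were -0.32, 0.08 and 0.01, and for AGO3 they were 0.17, 0.64 and 0.60. AGO2 and TNRC6A were thus called lower against the vehicle control and were not called against the other references. The difference between the comparisons was not tested.

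Against the 2 Nap only cultures, P4 treated libraries gave 7 of 10 members called, 3 higher and 4 lower, where 49.7% of 16987 genes were called, 24.8% higher and 24.9% lower, and the libraries of 68.1% of all genes lay apart. The called members were DGCR8 (-0.80 ± 0.10 on the log2 scale, from 67.7 and 64.7 CPM), TARBP2 (-0.65 ± 0.11, from 30.5 and 31.1 CPM), AGO1 (-0.49 ± 0.09, from 110 and 104 CPM) and DROSHA (-0.31 ± 0.09, from 74.9 and 72.9 CPM) among the lower. XPO5 (0.68 ± 0.12, from 115 and 101 CPM), AGO3 (0.60 ± 0.09, from 83.8 and 78.4 CPM) and AGO4 (0.48 ± 0.11, from 28.3 and 32.0 CPM) were the higher. The DROSHA call (adjusted p = 0.012) was lost without Nap only replicate 1 (0.092) or 2 (0.067) or P4 treated replicate 3 (0.078). The AGO4 call (adjusted p = 0.0038) was lost without Nap only replicate 1 (0.063). DICER1 (194 and 194 CPM in Nap only) was not called at -0.19 ± 0.09 (adjusted p = 0.099), but was without P4 treated replicate 1 (0.013). Without Nap only replicate 1 or 2, 5606 and 5502 genes were called in all.

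Nap only and control cultures gave 0 of 10 members called, where 0% of 17166 genes were called by edgeR, 217 genes (1.26%) had an unadjusted p under 0.05, none of them a member, and DESeq2 called 1 gene. The member log2 fold changes ranged from -0.07 to 0.07, with standard errors of 0.09 to 0.12. The libraries lay apart for 1 member, DROSHA, and for 12.2% of all genes. With the replicate number as a block, 42 genes were called. With 2 Nap only cultures, the lack of calls does not show that Nap had no effect.

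Among the Argonaute transcripts, the share of AGO1 was lower and the shares of AGO3 and AGO4 were higher in every P4 treated library than in any vehicle control. As a share of the summed AGO1 to AGO4 RPKM, AGO1 was 31.4% ± 1.16 (SD, n = 3) in controls, 31.3% in Nap only, 30.5% ± 0.943 in vehicle controls and 20.8% ± 1.30 in P4 treated cultures. AGO3 made up 15.2% ± 0.738 of the pool in controls, 16.3% ± 1.12 in vehicle controls and 22.1% ± 0.546 after P4, and AGO4 made up 17.2% ± 2.08, 14.0% ± 0.742 and 22.0% ± 1.72. AGO2 stayed the largest part in these groups, at 36.2% ± 2.70, 39.2% ± 0.434 and 35.1% ± 2.71. The AGO1 share in P4 treated libraries, at most 22.0%, was under the lowest vehicle control library, at 29.5%. The summed level was 24.8 ± 2.28 RPKM in controls, 31.5 ± 1.20 RPKM in vehicle controls and 26.3 ± 0.323 RPKM after P4. For each share and for the sum, the 2-sided exact permutation p of P4 treated against vehicle control was 0.1, the smallest that 3 against 3 libraries allow (0.15 adjusted over 27 comparisons).

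**Figure D3:**
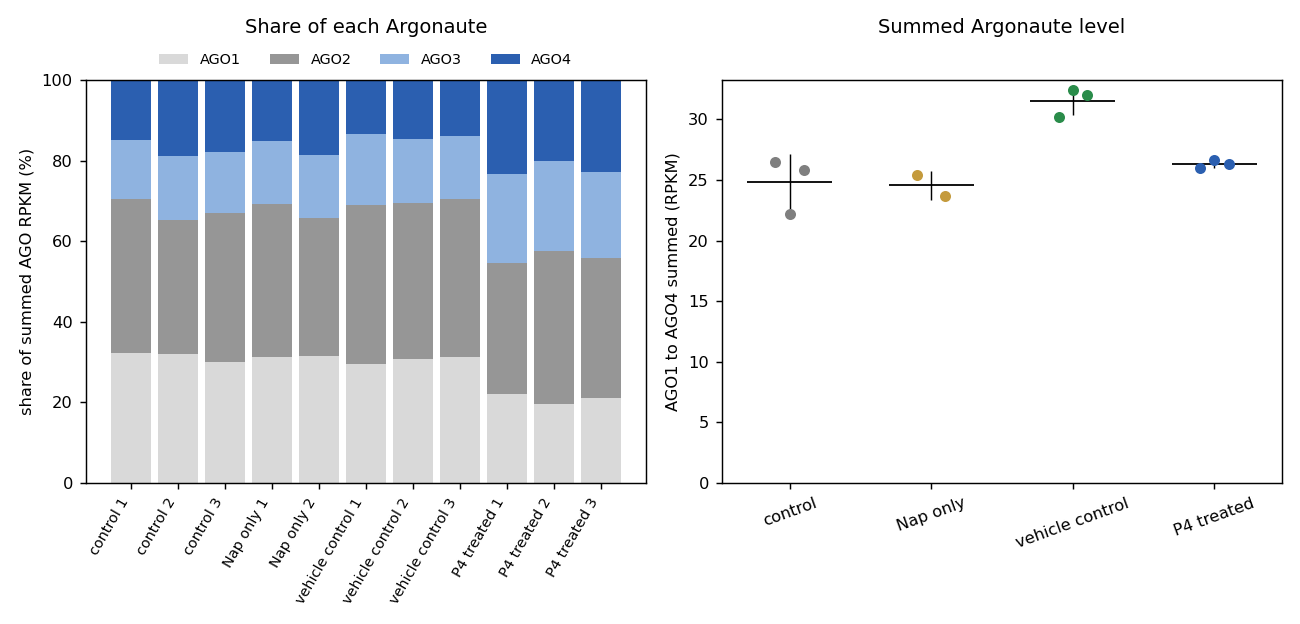
On the left, stacked bars give the share (%) of each Argonaute in the summed AGO1 to AGO4 RPKM of every library. On the right, points are the summed RPKM of each library, with the group mean and SD. The AGO1 part is 19.5% to 22.0% in the P4 treated libraries and 29.5% to 31.3% in the vehicle controls, and the vehicle controls have the highest sums, 30.2 to 32.4 RPKM.

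Around the members, the proteins that assist the Microprocessor gave 10 of 14 genes lower in P4 treated than in vehicle control cultures and 0 higher, where 26.5% of all tested genes were called lower and 26.6% higher, with a median log2 fold change of -0.44 against -0.013 over all genes. SRRT (ARS2, which links the cap-binding complex to the Microprocessor) was at -0.53 ± 0.07 (adjusted p = 4.9e-05). The helicase DDX5 (p68) was at -0.57 ± 0.08 (adjusted p = 5.8e-05). Of the 10 genes for export, DICER1 partners and loading of Argonaute, 7 fell and 2 rose, against the same 26.5% and 26.6% of all genes, with a median of -0.43. The largest falls were the chaperones HSPA8 (-1.49 ± 0.07, adjusted p = 1.7e-08), HSP90AA1 (-1.47 ± 0.07, 2.1e-08) and HSP90AB1 (-0.81 ± 0.06, 3.7e-07), which hold Argonaute open for the duplex but serve many other proteins too. PRKRA (PACT), a DICER1 partner like TARBP2, rose by 0.72 ± 0.07 (3.8e-06), and the co-chaperone DNAJA2 by 0.23 ± 0.07 (0.018). Against the untreated control DNAJA2 was not called (-0.02 ± 0.09, adjusted p = 0.85), and in the vehicle control it was lower than in the control (-0.25 ± 0.08, adjusted p = 0.022).

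Among 28 silencing effectors, 11 rose and 11 fell against the vehicle control, where 26.6% of all genes rose and 26.5% fell, with a median of -0.03. Against the untreated control 11 rose and 8 fell, beside 26.8% and 28.0% of all genes, with a median of 0.17. Against the vehicle control, the deadenylase subunits PAN2 (0.85 ± 0.08, adjusted p = 4.9e-06) and PAN3 (0.57 ± 0.09, 0.00020) rose, as did the LIM protein AJUBA (0.80 ± 0.07, 2.9e-06). The helicase DDX6 (-0.81 ± 0.06, 6.4e-07), the LIM protein LIMD1 (-0.67 ± 0.08, 2.8e-05) and the deadenylase CNOT6 (-0.53 ± 0.09, 0.00023) fell. PAN2 had 45.4 to 63.1 CPM in controls, 36.4 to 37.8 CPM in vehicle controls and 60.3 to 72.0 CPM after P4. Its P4 treated libraries thus overlapped the untreated controls, and its vehicle controls lay below both. CNOT6 was not called against the untreated control (-0.13 ± 0.10, adjusted p = 0.27), and it was higher in the vehicle control than in the control (0.41 ± 0.08, adjusted p = 0.0015). Of 12 genes of miRNA tailing, trimming and decay, 10 were tested and LIN28A and LIN28B were not, having at most 6 counts in any library. In that list 6 rose and 1 fell, beside 26.6% and 26.5% of all genes, with a median of 0.32, and against the untreated control 4 rose and 1 fell, with a median of 0.17. The uridyl transferase TUT4 rose by 0.64 ± 0.11 (0.00061), the adenylating enzyme TENT2 by 0.49 ± 0.07 (0.00011) and ZSWIM8, an adaptor for target-directed decay, by 0.54 ± 0.07 (6.6e-05), whereas the exonuclease DIS3L2 fell by 0.54 ± 0.09 (0.00021).

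The 4 PIWI genes, the germline branch of the Argonaute family, passed the filter in none of the comparisons. PIWIL1 had 0 counts in all 17 libraries and the highest of the others, PIWIL4, reached 1.14 CPM. The table also holds 86 miRNA host transcripts by name, of which 31 were tested here, 6 higher and 12 lower, with a median of -0.50. These 18 of 31 calls are near the background of 53.0% over all genes. MIR22HG (1.09 ± 0.14, adjusted p = 3.4e-05), MIR4435-2HG (0.90 ± 0.14, 0.00015) and MIR200CHG (1.74 ± 0.32, 0.00062) rose. MIR99AHG (-0.92 ± 0.10, 1.5e-05), MIR600HG (-0.99 ± 0.14, 8.3e-05) and MIR29B2CHG (-1.01 ± 0.15, 0.00014) fell. Against the untreated control MIR29B2CHG (-0.37 ± 0.18, adjusted p = 0.093) and MIR200CHG (-0.48 ± 0.24, adjusted p = 0.10) were not called. In the vehicle control against the control, MIR29B2CHG was higher (0.65 ± 0.15, adjusted p = 0.0039) and MIR200CHG lower (-2.23 ± 0.31, adjusted p = 3.6e-05). MIR200CHG was low, at 0.516 to 0.564 CPM in vehicle controls, 1.51 to 2.05 CPM after P4 and 2.32 to 2.80 CPM in controls. The hairpin genes MIR340, MIR542 and MIR671 had at most 3, 1 and 0 counts in any library, and total RNA libraries of this kind are not made to measure mature miRNAs.

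**Figure D4:**
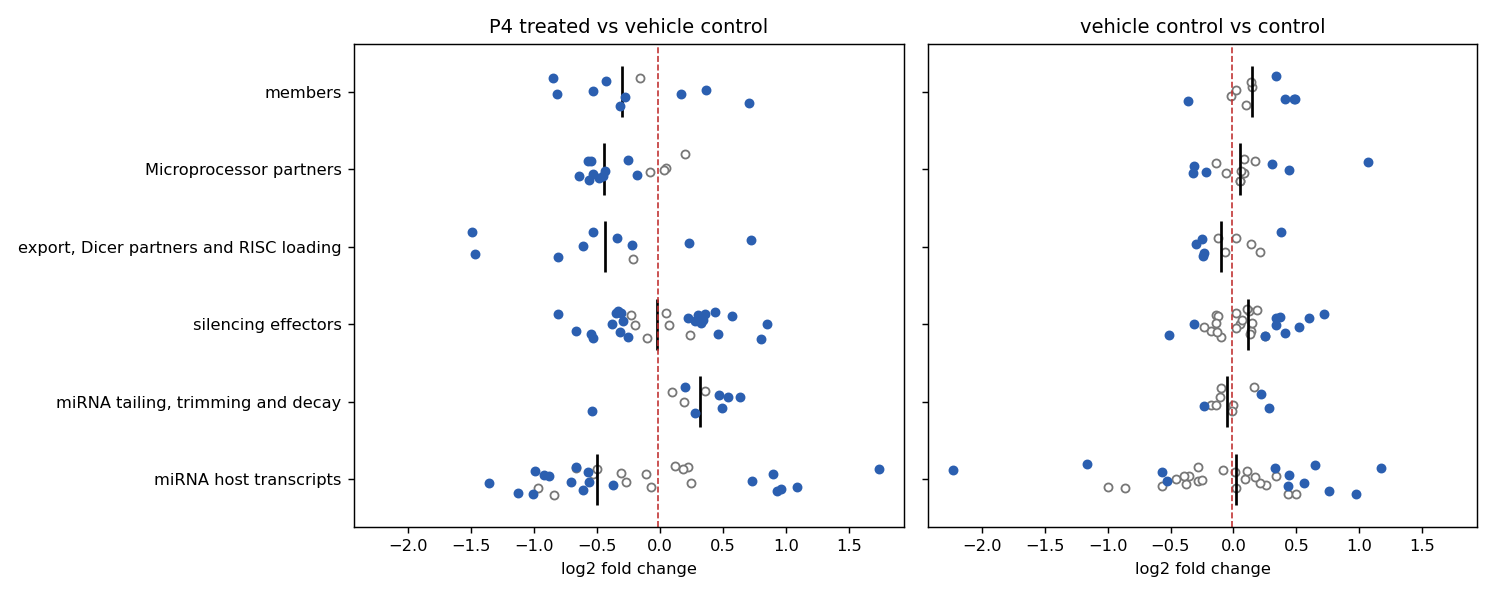
Each point is a gene, with its log2 fold change on the x axis, in P4 treated against vehicle control (left) and vehicle control against control (right). Filled points passed the test, black bars are list medians and the dashed line is the median of all tested genes. On the left the Microprocessor partners have a median of -0.44 and the tailing and decay genes 0.32, and on the right these medians are 0.05 and -0.06.

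In the vehicle control against the control, fewer genes were called in each list that held tested genes, as over all genes, where the called share was 22.6% against 53.0%. The Microprocessor partners gave 3 higher and 3 lower of 14, the export and loading genes 1 higher and 4 lower of 10, the silencing effectors 8 higher and 2 lower of 28, and the tailing and decay genes 2 higher and 1 lower of 10 tested.

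Over all 17 libraries, the transcripts most like AGO2 in log2(CPM + 1) were SCAF4 (Pearson r = 0.938), PEAK1 (0.929) and ZCCHC14 (0.922) among 10016 genes with a mean of at least 10 CPM. For DICER1 they were USF3 (0.914), ATAD5 (0.912) and EXPH5 (0.905). These values describe 17 points that share libraries, depth and treatments, and no test was made of them.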

How the data were processed

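RNA-seq of Ishikawa cells was used as gene counts for 11 libraries with a group and 6 without. The authors trimmed reads with Cutadapt, filtered them by quality, kept unique Subread alignments and deposited read counts per gene from featureCounts with GENCODE 31, not normalized. Tool versions and the strand setting of the counting are not given in the sources used here, so reads of overlapping genes on opposite strands may not be separated. The authors' tests used DESeq2. Unique mapping leaves out reads shared by near-identical copies.

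Counts were scaled by TMM and tested with edgeR 4.0.16 in R 4.3.3 (filterByExpr with a minimum count of 10, robust quasi-likelihood fit, 2 groups per fit, Benjamini-Hochberg over all genes tested). Standard errors are the absolute log2 fold change over the root of F. In the fit of P4 treated with vehicle control libraries the common dispersion was 0.00635. RPKM used exon lengths of GENCODE 29 on GRCh38, which holds the same gene version for 3 members and another for 7. Of 60662 genes, 58587 were named there, 2054 from a table of names, and 21 had none. Replicates of a group differed beyond counting noise, with a chi-square per degree of freedom of 1.54 to 20.6. Library totals were 4999521 to 19704493. Member promoters matched RefSeq for 9 of 10 members.

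The text names all members, the paralogs of TNRC6A, PGR, from each list the 3 called genes of smallest adjusted p that rose and the 3 that fell, and the 3 genes most like AGO2 and DICER1. Not every gene this rule picks is reported here. Members and lists were chosen with earlier results of these data known. Alternatives were DESeq2 1.42.0, RLE and upper-quartile scaling, no filter, 10 counts in every library, all groups in a fit, the replicate number as a block, and each replicate left out. Other steps used pandas 2.3.3, numpy 2.4.6, scipy 1.17.1 and matplotlib 3.10.9 under Python 3.11.15.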

Additional observations from a re-analysis of the deposited data

Results flagged for a closer look

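The 6 libraries without a group entered no comparison, and in 7 members at least 1 of them was above the highest control library. Their labels state recombinant PSAT1 where the column name adds P4, and the reverse, so each library is given by its column name, with no mean and no test. DGCR8 had 36.5, 37.3 and 38.3 CPM in the columns named PSAT1_P4 and 64.3, 71.2 and 68.0 CPM in those named PSAT1, and 2 of the 6 were above the highest control, at 65.7 CPM. For XPO5 the values were 171, 174 and 185 CPM under PSAT1_P4 and 120, 96.7 and 110 CPM under PSAT1, with 4 of 6 above the control maximum of 119 CPM. TARBP2 had 18.8, 21.2 and 19.7 CPM in the columns named PSAT1_P4 and 30.0, 29.5 and 31.8 CPM in those named PSAT1, and 1 of the 6 was above the highest control, at 31.6 CPM. For AGO2 the values were 128, 140 and 164 CPM under PSAT1_P4 and 143, 137 and 158 CPM under PSAT1, with 1 of 6 above the control maximum of 161 CPM. AGO3 had 118, 125 and 128 CPM in the columns named PSAT1_P4 and 83.6, 85.9 and 79.9 CPM in those named PSAT1, and 5 of the 6 were above the highest control, at 82.3 CPM. For AGO4 the values were 40.0, 39.3 and 44.7 CPM under PSAT1_P4 and 28.0, 28.7 and 24.8 CPM under PSAT1, with 3 of 6 above the control maximum of 33.4 CPM. TNRC6A had 87.2, 98.3 and 108 CPM in the columns named PSAT1_P4 and 100, 99.4 and 97.7 CPM in those named PSAT1, and 3 of the 6 were above the highest control, at 98.6 CPM.

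DROSHA read 57.1, 55.7 and 67.0 CPM and 73.3, 67.1 and 69.6 CPM in the same order of columns. DICER1 read 164, 161 and 178 CPM and 191, 195 and 196 CPM. AGO1 read 74.8, 65.1 and 73.2 CPM and 109, 108 and 113 CPM. For these 3 members 0 of the 6 libraries were above the highest control. The lowest control was 76.3 CPM for DROSHA, and all 6 libraries were below it. For AGO1 the lowest control was 98.6 CPM, above every library under PSAT1_P4 and below those under PSAT1. For DICER1 it was 175 CPM, and the libraries under PSAT1_P4 lay on both sides of it. Under PSAT1_P4, DGCR8 and TARBP2 were also below their lowest controls, at 62.6 and 30.0 CPM. PGR, which is not a member, read at most 20.9 CPM in the columns named PSAT1_P4 and at most 27.2 CPM in P4 treated libraries. In the columns named PSAT1 it read 98.3, 128 and 108 CPM, beside 103 to 117 CPM in controls. PGR thus split by column name, but which label of these 6 libraries holds was not tested.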

How the results depend on the processing

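No member changed sign while called under any alternative. In P4 treated against vehicle control, 113 values kept their side of the threshold, 15 lost the call and 2 gained it. The losses were in AGO3, TARBP2 and TNRC6A and the gains in DICER1, and not every setting that lost the AGO3 call is given. Against the control all 130 values kept their side, against Nap only 113 did with 5 lost and 2 gained, and in the vehicle control against the control 129 did with 1 lost. DROSHA against Nap only was -0.30 with a replicate block (adjusted p = 0.12). AGO3 against the vehicle control had adjusted p from 0.019 to 0.31 over its 14 settings.

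Upper-quartile scaling moved the median of all genes to -0.101 and no filter to -0.097 in P4 treated against vehicle control. Without a filter, 1 PIWI gene was called there. Leaving out 1 replicate gave 1908 to 3995 genes called in the vehicle control against the control, 5502 to 9719 in P4 treated against Nap only and 0 to 5 in Nap only against the control. Nap only against the control gave 1 gene with DESeq2, 3 with no filter, 1 with all groups in the fit and 42 with a replicate block. The cause of these shifts was not tested.

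Replicate numbers were not taken to pair the samples. In the comparisons with 3 shared numbers, deviations of same-numbered libraries from their group means correlated at a mean r of 0.0183 in P4 treated and vehicle control, -0.0729 in P4 treated and control and 0.0419 in vehicle control and control over 15657 genes. Nap only and control share 2 numbers, too few for this check, and their pairs gave 0.328, against -0.164 between other numbers, so a pairing there cannot be settled. With the block, 8934 genes were called in P4 treated against vehicle control and the AGO3 call was lost (adjusted p = 0.054). The groups hold 2 or 3 cultures, vehicle control replicate 1 is the shallowest library, and AGO3 and DICER1, with the smallest differences from the vehicle control (0.17 and -0.16), were called in 5 and 2 of 14 settings.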
